A study of Mus musculus with 6 samples.

Results

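The level of 8 aldo-keto reductase genes was followed across the series: Akr1c6, Akr1c12, Akr1c13, Akr1c14 and Akr1c18 of the 1C subfamily, Akr1b3 and Akr1b8 of the 1B subfamily, and Akr1a1. They were taken by their symbols and were 8 of the 22298 genes listed. The set was selected on the counts and FPKM of the genotype comparison in these same libraries, so the genotype values of the 8 genes are given as a description, without p-values. The libraries hold RNA of sorted thymocytes labelled DN, the double-negative precursors that carry neither CD4 nor CD8, from untreated C57BL/6 mice. Toxf/fPdcd1Cre mice carry a Tox gene flanked by recombination sites together with a Cre recombinase named for Pdcd1, and supplied 3 samples, replicates 1 and 2 at 3 weeks of age and replicate 3 at 4 weeks. Toxf/f mice carry the flanked Tox gene without that Cre and supplied another 3 samples of the same ages. The comparison asks how these transcripts differ when Tox, a nuclear HMG-box protein needed in thymocyte development, is targeted.

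The deposited values of Toxf/f replicates 1 and 2 were identical, so these 2 samples were counted as 1 library, and 3 Toxf/fPdcd1Cre libraries stand against 2 Toxf/f libraries. The estimated counts of a library summed to between 14245492 and 16199195. Whether the samples are separate mice is not given in the labels, so the errors speak for these libraries only. The protocol names the DN2 stage where the titles say DN, and Cd8a and Cd4 ranked 26 and 105 by mean CPM among all listed genes, which goes against double-negative cells alone. Kit, a receptor of early precursors, ranked 8120. Tox averaged 16.5 ± 2.69 CPM (SD, n = 3) in Toxf/fPdcd1Cre and 113 ± 11.5 CPM (SD, n = 2) in Toxf/f libraries, a log2 fold change of -2.78 ± 0.161 (SE). CPM is the count relative to the scaled library size. In Ddx3y, a gene of the Y chromosome, Toxf/fPdcd1Cre replicate 1 held 1 count where the remaining libraries held 843 to 1354, and values that this library moved most are given with and without it.

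Aldo-keto reductases are soluble enzymes that use NADPH or NADH to reduce aldehydes and ketones to alcohols, on substrates that include sugars, lipid aldehydes, prostaglandins and steroids. Enzymes of the 1C subfamily act mainly on the hydroxyl and keto groups of steroids and so make or inactivate hormones, and their mouse genes lie side by side in a cluster. In mouse haematopoietic cells a hydroxysteroid dehydrogenase activity of this family has long been used as a sign of a response to interleukin 3.

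Those 5 of the 8 genes that belong to the 1C subfamily lie within one stretch of chromosome 13, from 4049011 to 4586541 in GRCm38. It also holds Akr1c19, Akr1c20 and Akr1c21. Akr1c13 (ENSMUSG00000021213) spans 4191150 to 4205596 on the plus strand and Akr1c12 (ENSMUSG00000021211) spans 4268176 to 4279433 on the minus strand. These 2 genes are near copies: their coding sequences, 972 bases each, had 935 identical positions, or 96.2%. The other pairs among the 5 genes reached 73.1% to 76.8%. Of all stretches of 50 bases in Akr1c12 transcripts 28.6% occurred also in Akr1c13, and of those of 150 bases 7.10%.

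The likeness extends upstream. The 250 bases before each gene's start were taken from RefSeq (GRCm38.p6), where a window matched 7 of the 8 genes. The RefSeq starts lie inside the GENCODE gene spans given here, by 34 bases for Akr1c12, 37 for Akr1c13 and 8 for Akr1c18, and by 10580 bases for Akr1c14, so the windows reach into those spans. They are shown for the pair of near copies, chr13:4279400-4279649 on the minus strand and chr13:4190937-4191186 on the plus strand, since these were the 2 genes that passed the threshold below. Both read 5′ to 3′ toward the gene, and capitals mark bases without an identical partner when the 2 windows are aligned. The window of Akr1c18, chr13:4150647-4150896 on the minus strand, follows for contrast, in lower case throughout, as a cluster neighbour that did not pass the threshold.
Akr1c12: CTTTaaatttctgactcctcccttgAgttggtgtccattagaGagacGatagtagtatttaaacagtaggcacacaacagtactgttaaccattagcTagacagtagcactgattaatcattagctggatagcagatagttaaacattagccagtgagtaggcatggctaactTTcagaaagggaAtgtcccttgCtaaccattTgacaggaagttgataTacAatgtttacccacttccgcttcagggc
Akr1c13: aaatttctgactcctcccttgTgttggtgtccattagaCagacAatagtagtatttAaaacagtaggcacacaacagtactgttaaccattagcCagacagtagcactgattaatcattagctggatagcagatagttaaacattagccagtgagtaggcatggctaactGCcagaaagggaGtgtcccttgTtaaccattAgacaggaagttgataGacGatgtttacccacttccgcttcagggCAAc
Akr1c18: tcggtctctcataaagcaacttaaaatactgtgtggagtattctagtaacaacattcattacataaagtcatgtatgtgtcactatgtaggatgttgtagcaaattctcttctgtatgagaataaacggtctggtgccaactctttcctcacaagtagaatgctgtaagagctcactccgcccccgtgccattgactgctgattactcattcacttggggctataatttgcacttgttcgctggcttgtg
The windows of Akr1c12 and Akr1c13 differed in 19 of 254 aligned columns, an identity of 92.5%. Akr1c18 shared 45.5% with the Akr1c12 window and 45.9% with the Akr1c13 window, which lies within the range of 42.7% to 52.1% over all pairs other than the near copies. Both strands of the 7 windows were searched for 4 motifs. The letters TGACNNNGC, the core of the antioxidant response element, were found in 0 of the 7 and in 10.2% of all 32851 windows of the same length. TTCNNNGAA, a STAT-type site, was found in 0 of the 7 and in 7.02% of all windows, and TGTGGT, a RUNX-type site, in 0 of the 7 and in 14.0%. TATAAA was found in the windows of Akr1c6 and Akr1b8 and in 12.4% of all windows.

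Akr1c13, a dehydrogenase of hydroxysteroids and other alcohols described in mouse as an interleukin 3-regulated enzyme, was the most abundant transcript of the subfamily. It had 1097.97, 893.4 and 838.45 estimated counts in Toxf/fPdcd1Cre replicates 1 to 3, against 321.44 in the shared Toxf/f library and 273.55 in Toxf/f replicate 3. Scaled for library size these are 75.0, 57.0 and 57.6 CPM in Toxf/fPdcd1Cre and 20.6 and 16.5 CPM in Toxf/f. The lowest Toxf/fPdcd1Cre library was thus above the highest Toxf/f library, and replicate 1 was the highest of all. The log2 fold change was 1.77 ± 0.179 (SE), or 3.41-fold. Without Toxf/fPdcd1Cre replicate 1 it was 3.02-fold.

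Akr1c12, its near copy, moved by almost the same factor at a lower level. It had 201.03, 119.6 and 112.55 estimated counts in the Toxf/fPdcd1Cre libraries, against 47.56 and 44.45 in the Toxf/f libraries. In CPM these are 13.7, 7.66 and 7.77 in Toxf/fPdcd1Cre and 3.07 and 2.65 in Toxf/f. The groups again did not overlap, and Toxf/fPdcd1Cre replicate 1 stood above its group by more than the other 2 differed. The log2 fold change was 1.76 ± 0.330 (SE), or 3.39-fold, and it was 2.62-fold without Toxf/fPdcd1Cre replicate 1.

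Of the 8 genes, 6 passed the filter on low counts and were tested, and 2 of those 6, Akr1c13 and Akr1c12, had an adjusted p under 0.05 when edgeR tested the whole table by quasi-likelihood, both higher in Toxf/fPdcd1Cre. Since the genes were selected on this comparison, that count describes them and supports nothing further. Over all 14121 genes tested 1.64% passed, 0.135% in that direction and 1.51% in the other. By size of the fold change upward the 2 genes ranked 26 and 27. Leaving out 1 of the 5 libraries at a time gave log2 fold changes from 1.59 to 1.94 for Akr1c13, each past the threshold. Akr1c12 missed the threshold without the shared Toxf/f library, at 1.87, and without Toxf/f replicate 3, at 1.66. In the fits with 1 Toxf/f library the spread came from the Toxf/fPdcd1Cre libraries alone, and the lone library was assumed to vary like them.

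**Figure D1:**
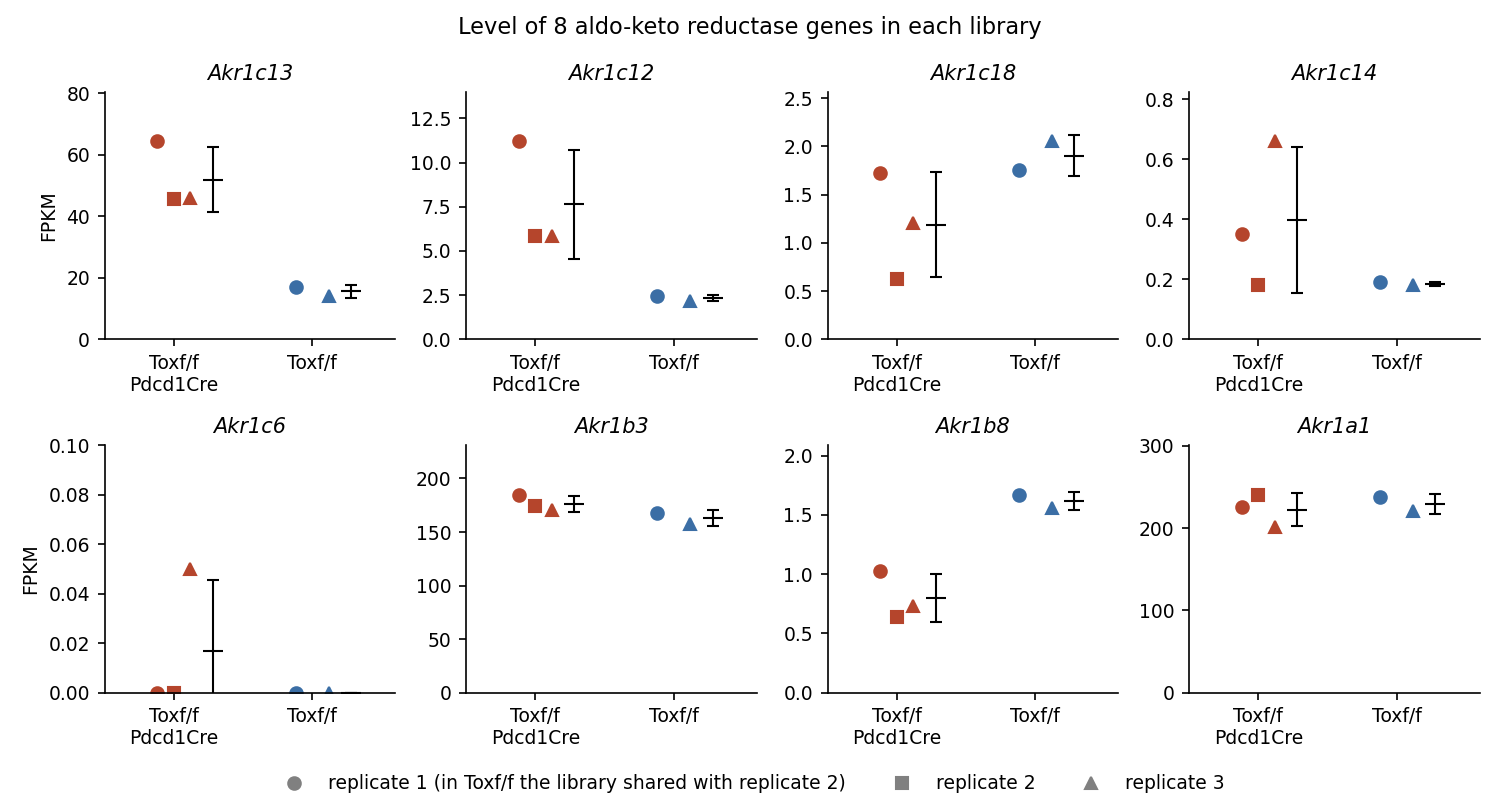
Level of each of the 8 genes in FPKM (fragment counts per gene length and library depth) on a linear axis that starts at 0, 1 panel per gene with its own scale; each point is 1 library, Toxf/fPdcd1Cre left in red and Toxf/f right in blue, with the group mean and SD in black. Akr1c13 lies at 45.7 to 64.4 FPKM in Toxf/fPdcd1Cre and at 14.1 to 17.1 FPKM in Toxf/f, and Akr1c12 is separated in the same way, while the points of Akr1a1 overlap.

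The counts of this pair were not whole numbers, which sets the limit on reading the 2 genes apart. Among the 20 aldo-keto reductase genes looked at, Akr1c12 and Akr1c13 were the only ones with a count that was not whole, in each of the 5 libraries. Their counts added up to whole numbers in each library: 1299, 1013 and 951 in Toxf/fPdcd1Cre, against 369 and 318 in Toxf/f. The fraction of one count was thus the complement of that of the other, and how reads that fit both copies were divided was not stated in any label or header. Akr1c12 took 15.5%, 11.8% and 11.8% of the summed count in the Toxf/fPdcd1Cre libraries, against 12.9% and 14.0% in the Toxf/f libraries. These shares overlap between the genotypes. Entered as 1 feature, the pair had 88.7, 64.7 and 65.4 CPM in Toxf/fPdcd1Cre and 23.6 and 19.2 CPM in Toxf/f, with a log2 fold change of 1.77 ± 0.186 (SE).

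**Figure D2:**
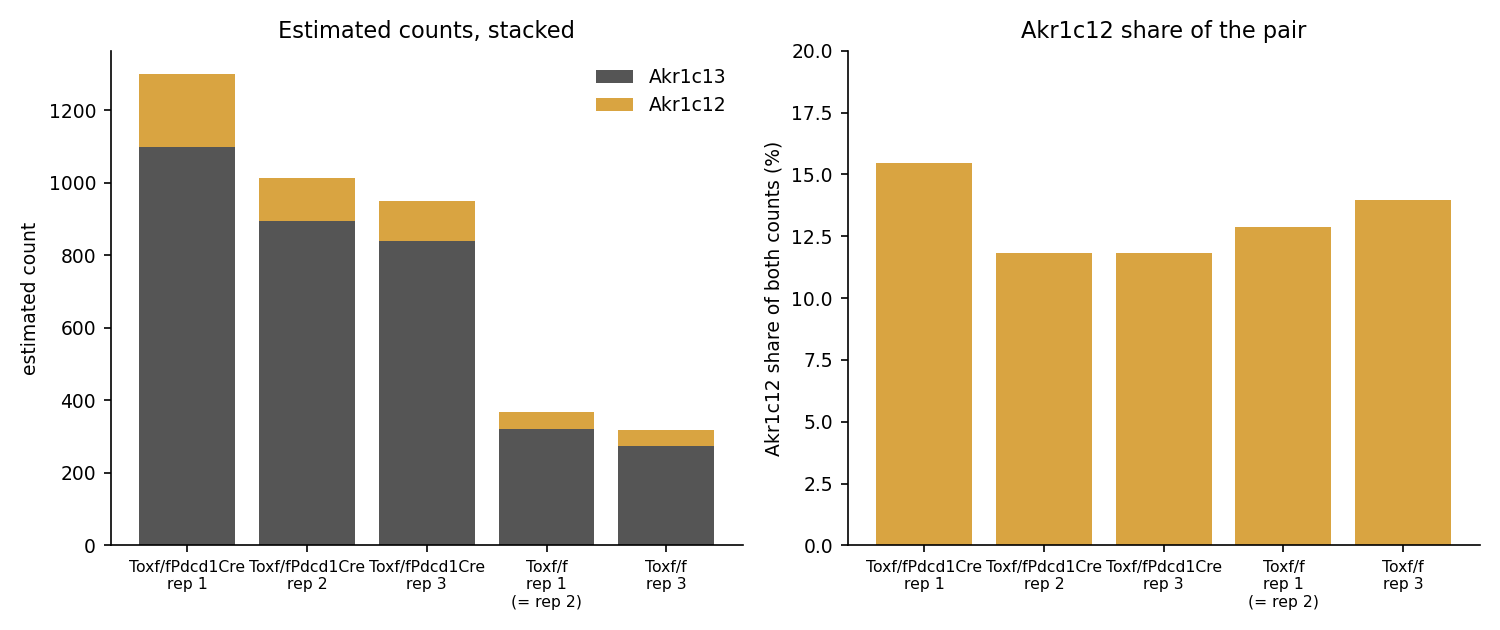
Left, estimated counts of Akr1c13 (grey) and Akr1c12 (yellow) stacked for each library; right, the share of Akr1c12 in the summed count in percent. The stacks stand at 951 to 1299 in Toxf/fPdcd1Cre and at 318 to 369 in Toxf/f, while the share lies between 11.8% and 15.5% in every library.

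Akr1c18 encodes the mouse 20α-hydroxysteroid dehydrogenase, which inactivates progesterone. It lies on the minus strand from 4132615 to 4150654, between Akr1c14 and Akr1c13. Its counts were 29, 12 and 22 in Toxf/fPdcd1Cre, against 32 and 39 in Toxf/f. In CPM these are 1.98, 0.766 and 1.51 in Toxf/fPdcd1Cre and 2.05 and 2.35 in Toxf/f. Every Toxf/fPdcd1Cre library was below every Toxf/f library, but replicate 1 lay just under the nearer of them. The log2 fold change of -0.63 ± 0.481 (SE) did not pass the threshold, and it ranged from -0.99 to -0.33 when 1 library was left out.

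Akr1c14 and Akr1c6 were too low to be tested. Akr1c14, a mouse 3α-hydroxysteroid dehydrogenase at 4049011 to 4090688 on the plus strand, had 12, 5 and 7 counts in Toxf/fPdcd1Cre, against 8 and 7 in Toxf/f. The ratio of the summed counts, scaled for library size, was 1.10 with an exact 95% interval of 0.555 to 2.26, which covers counting error only. Its FPKM followed another order, with 0.35, 0.18 and 0.66 in Toxf/fPdcd1Cre and 0.19 and 0.18 in Toxf/f. In Toxf/fPdcd1Cre replicate 3 the count and the FPKM implied a transcript length of 698 bases, against 1715 to 2731 bases in the other libraries, so its FPKM cannot be compared between libraries as its count can. For the 6 genes that were tested the implied length varied little, from 1197 to 1218 bases for Akr1c13 and from 1259 to 1262 bases for Akr1c12. In the annotation Akr1c14 also overlaps the predicted gene Gm18857.

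Akr1c6, the mouse type 5 17β-hydroxysteroid dehydrogenase, lies at 4434306 to 4457877 on the plus strand. It had a single count in Toxf/fPdcd1Cre replicate 3 and 0 in the other libraries, where 3 counts, the limit that a count of 0 allows, are worth 0.185 to 0.211 CPM. No difference was detectable at this depth.

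Per length, Akr1c13 made up most of the summed 1C transcripts in both genotypes. The 5 genes summed to 77.7, 52.4 and 53.8 FPKM in Toxf/fPdcd1Cre, against 21.5 and 18.6 FPKM in Toxf/f. Akr1c13 made up 85.2 ± 2.19% (SD, n = 3) of the sum in Toxf/fPdcd1Cre and 77.9 ± 2.43% (SD, n = 2) in Toxf/f. Akr1c18 made up 1.89 ± 0.595% in Toxf/fPdcd1Cre and 9.59 ± 2.05% in Toxf/f. The ranges of both genes were apart between genotypes, whereas Akr1c12 made up 12.2 ± 1.95% in Toxf/fPdcd1Cre and 11.6 ± 0.319% in Toxf/f with overlapping ranges. These shares follow from the same levels as the fold changes above and were not tested.

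**Figure D3:**
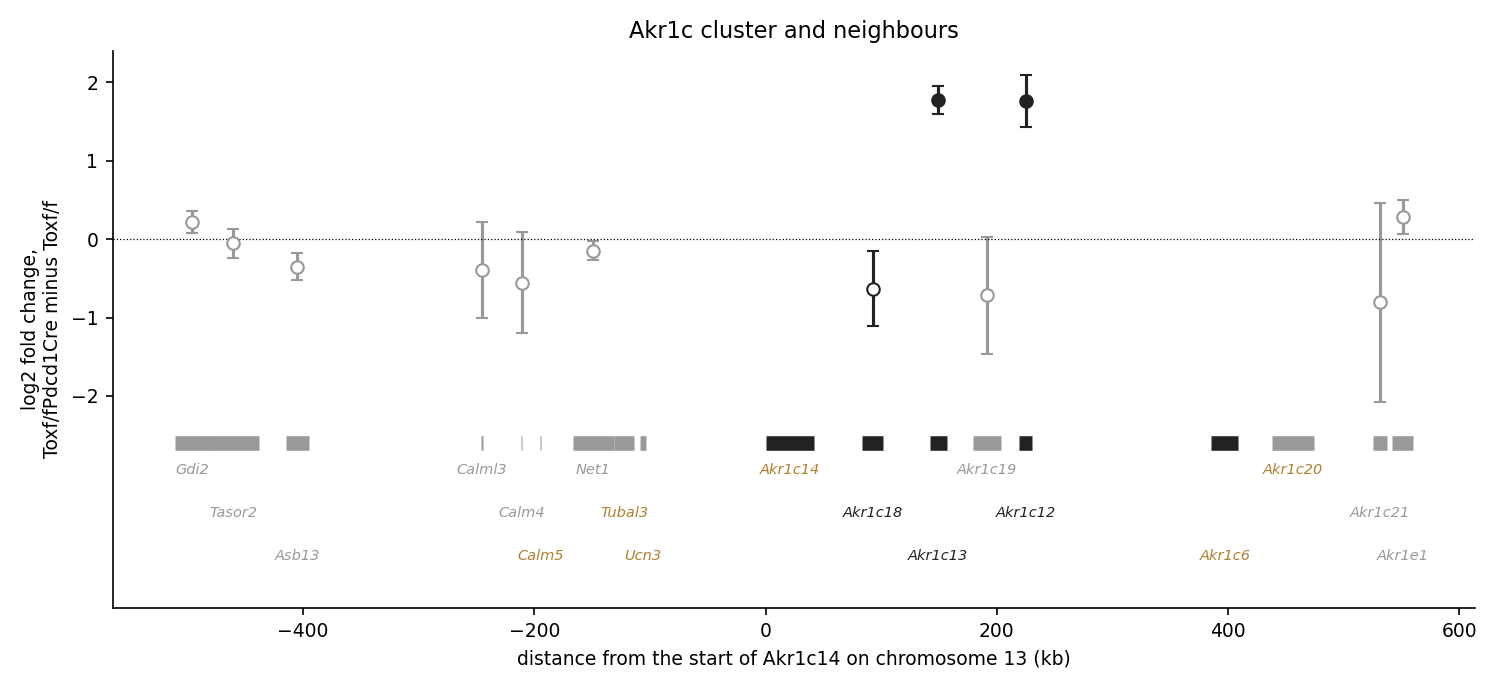
Log2 fold change (Toxf/fPdcd1Cre minus Toxf/f, bars are SE) of tested genes in and within 500 kb of the 1C cluster, against the distance in kb from the start of Akr1c14 on chromosome 13; blocks below show each gene's extent, black for the 8 genes and grey for others, filled points passed the threshold and names in yellow were too low to be tested. Akr1c13 and Akr1c12 stand at 1.77 and 1.76, and the open points between and around them lie between -0.81 and 0.28.

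No other tested gene in or near the cluster passed the threshold. Around and within the cluster 13 other listed genes lie within 500 kb, of which 9 were tested and 0 passed in edgeR, with 0 at an unadjusted p under 0.05 and 0 in DESeq2 or limma-voom. Akr1c19, the gene between Akr1c13 and Akr1c12, had a log2 fold change of -0.72 ± 0.744 (SE) from 24 counts in all Toxf/fPdcd1Cre libraries and 29 in the Toxf/f libraries. Akr1c21 had -0.81 ± 1.26 and Akr1e1, just past the end of the cluster, 0.28 ± 0.219. Further out Net1 had -0.15 ± 0.121 and Gdi2, which extracts Rab GTPases from membranes, had 0.22 ± 0.139. Asb13, Tasor2, Calml3 and Calm4 had -0.35, -0.06, -0.39 and -0.55. Calm5, Tubal3, Ucn3 and Akr1c20 were too low to be tested.

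Akr1b3 and Akr1b8, those of the 8 genes that belong to the 1B subfamily, lie on chromosome 6 of GRCm38 and were at very different levels. Akr1b3, the aldose reductase that turns glucose into sorbitol in the polyol pathway, spans 34302434 to 34317478 on the minus strand. It had 249, 250 and 247 CPM in Toxf/fPdcd1Cre, against 230 and 211 CPM in Toxf/f. The Toxf/fPdcd1Cre libraries were all above the Toxf/f libraries by a small margin, and the log2 fold change of 0.17 ± 0.127 (SE) did not pass. The gene overlaps Gm14546 on the opposite strand. Of its stretches of 50 bases 9.48% occur in other genes, among them Gm6644, Gm6736 and Gm12138, although its counts were whole.

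Akr1b8, first described in mouse as a protein induced by fibroblast growth factor, spans 34354119 to 34368463 on the plus strand. It had 20, 14 and 15 counts in Toxf/fPdcd1Cre, against 35 and 34 in Toxf/f. In CPM these are 1.37, 0.894 and 1.03 in Toxf/fPdcd1Cre and 2.24 and 2.05 in Toxf/f. All 3 Toxf/fPdcd1Cre libraries were below both Toxf/f libraries. The log2 fold change was -0.96 ± 0.452 (SE) and did not pass, with a range of -1.19 to -0.83 when 1 library was left out.

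Akr1a1, the aldehyde reductase that also serves ascorbate synthesis in mice, lies on chromosome 4 from 116636510 to 116651680 on the minus strand. It was the most abundant of the 8 genes per length, at 201.82 to 240.71 FPKM in Toxf/fPdcd1Cre and 220.83 to 237.56 FPKM in Toxf/f. It had 312, 353 and 299 CPM in Toxf/fPdcd1Cre, against 333 and 303 CPM in Toxf/f. The groups overlapped. Its log2 fold change of 0.015 ± 0.137 (SE) was near 0 and changed sign with the scaling or filter, down to -0.059 and up to 0.089 when 1 library was left out.

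**Figure D4:**
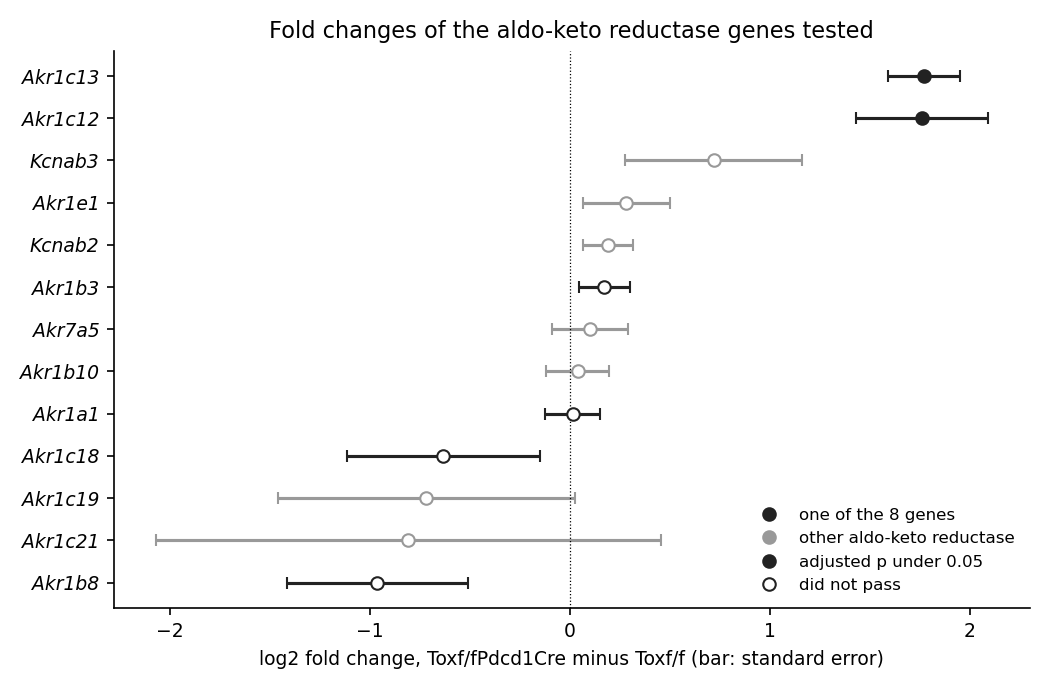
Log2 fold change (Toxf/fPdcd1Cre minus Toxf/f) of the 13 aldo-keto reductase genes tested, with SE as bars; black marks the 8 genes, grey other family genes, and filled points passed an adjusted p of 0.05. Akr1c13 and Akr1c12 are the filled points, at 1.77 and 1.76, and the other 11 lie between -0.96 and 0.72.

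Of the 6 tested genes 5 had libraries that did not overlap between genotypes, 3 of them higher in Toxf/fPdcd1Cre (Akr1c13, Akr1c12 and Akr1b3) and 2 lower (Akr1c18 and Akr1b8). Over all genes tested 26.2% did not overlap, 12.6% in the higher direction and 13.5% in the lower. Ordered by FPKM, the 8 genes stood in the same order in both genotypes. It ran Akr1a1, Akr1b3, Akr1c13, Akr1c12, Akr1c18, Akr1b8, Akr1c14 and Akr1c6. In Toxf/fPdcd1Cre the ranges of Akr1c18 and Akr1b8 overlapped, as did those of Akr1b8 and Akr1c14, and each other pair of neighbours in the order was apart. In Toxf/f all neighbours were apart.

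Age was a contrast that played no part in the choice of genes. The 4-week libraries were replicate 3 of each genotype, so age cannot be told apart from replicate number. Age was not fitted without Toxf/fPdcd1Cre replicate 1. None of the 6 tested genes passed for 4 weeks minus 3 weeks in a fit with genotype and age, where 0.00708% of all genes passed. The count at an unadjusted p under 0.05 was 0, beside 2.12% of all genes, and DESeq2 and limma-voom also gave 0. Akr1c13 had 57.6 CPM at 4 weeks, against 75.0 and 57.0 CPM at 3 weeks, within Toxf/fPdcd1Cre, and 16.5 CPM at 4 weeks, against 20.6 CPM at 3 weeks, within Toxf/f. Its log2 difference was -0.24 ± 0.168 (SE) and that of Akr1c12 was -0.36 ± 0.326, with an adjusted p of 0.9997 for both in edgeR. Within each age the Toxf/fPdcd1Cre libraries were above the Toxf/f library for both genes. In the test of the genotype effect between ages (the interaction) 0 of the 6 genes passed in edgeR and 0 had an unadjusted p under 0.05, beside 0.0283% and 2.68% of all genes. DESeq2 and limma-voom were not run for it. Most combinations of genotype and age held a single library, so the 0 does not show that the effect is alike at both ages.

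No other aldo-keto reductase passed the threshold. Of 12 further family genes 7 were tested and 0 passed, with 0 at an unadjusted p under 0.05 and 0 in DESeq2 or limma-voom. Among the 5 too low to be tested, Kcnab1 had 4 counts in Toxf/fPdcd1Cre and 13 in Toxf/f. The ratio, scaled for library size, was 0.212 with an exact 95% interval of 0.0504 to 0.687, which covers counting error only. For Akr1b7, Akr1c20, Akr1cl and Akr1d1 the interval included equal levels. Kcnab2, a subunit of voltage-gated potassium channels, averaged 134 ± 6.33 CPM in Toxf/fPdcd1Cre and 118 ± 5.68 CPM in Toxf/f, a log2 fold change of 0.19 ± 0.124 (SE). Akr1b10, which lies next to Akr1b8, averaged 28.4 ± 2.56 CPM in Toxf/fPdcd1Cre and 27.7 ± 4.40 CPM in Toxf/f.

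Few genes of the pathways in which these enzymes are usually placed passed the threshold. At an unadjusted p under 0.05 in edgeR, 435 of all 14121 genes tested were higher and 1025 lower, the background for every list's count. Of 25 tested genes of the NRF2 pathway, which induces antioxidant and detoxifying enzymes, 0 passed in edgeR, DESeq2 or limma-voom, with 1 higher and 1 lower at an unadjusted p under 0.05. Their median log2 fold change was 0.015, beside 0.025 over all genes tested. The ferritin chains Ftl1 and Fth1, the highest of them in CPM, had -0.13 ± 0.161 and -0.08 ± 0.147. Of 19 tested steroid enzymes and receptors 0 passed in any of these tools and 0 at an unadjusted p under 0.05, with a median of -0.05. The glucocorticoid receptor Nr3c1 averaged 407 ± 84.0 CPM in Toxf/fPdcd1Cre and 348 ± 56.4 CPM in Toxf/f. Of 29 tested genes of carbonyl, aldehyde and alcohol metabolism 0 passed in these tools, with 1 higher at an unadjusted p under 0.05 and a median of 0.057. Adh5 and Aldh3a2, a formaldehyde-clearing and a fatty aldehyde dehydrogenase, had 0.18 ± 0.122 and 0.039 ± 0.123.

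Of 19 tested genes of prostaglandin synthesis and receptors 2 fell in edgeR, 1 in DESeq2 and 2 in limma-voom, and 0 rose. At an unadjusted p under 0.05 in edgeR 3 were lower and 0 higher, with a median of 0.0014. Ptgir, the prostacyclin receptor, averaged 1.65 ± 0.419 CPM in Toxf/fPdcd1Cre and 6.38 ± 0.866 CPM in Toxf/f, a log2 fold change of -1.94 ± 0.341 (SE), and edgeR gave it an adjusted p of 0.0158. Ptgs2, the inducible cyclooxygenase, averaged 3.17 ± 2.81 CPM in Toxf/fPdcd1Cre and 16.1 ± 0.315 CPM in Toxf/f, a log2 fold change of -2.35 ± 0.495 (SE) and an adjusted p of 0.0370 from edgeR. Without Toxf/fPdcd1Cre replicate 1 the log2 fold change of Ptgs2 was -3.39. Each call was lost when either Toxf/f library or Toxf/fPdcd1Cre replicate 3 was left out. Of 17 tested genes of the interleukin 3 and STAT5 axis 1 fell in edgeR, 1 in DESeq2 and 2 in limma-voom, and 0 rose. At an unadjusted p under 0.05 in edgeR 6 were lower and 0 higher, with a median of -0.36. Over all 14121 genes tested 1025 were lower and 435 higher. Without Toxf/fPdcd1Cre replicate 1 edgeR gave 4 lower and 0 higher calls in the list. The gene that fell was Il7r, the interleukin 7 receptor chain, at -0.75 ± 0.166 (SE) and an adjusted p of 0.0496 in edgeR, a call that held in 1 of the 5 fits with a library left out, the fit without Toxf/fPdcd1Cre replicate 1.

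The genes whose levels followed the same course over the 5 libraries were sought by the root mean square difference of log2 CPM after centring each gene on its mean, over 12744 genes. For Akr1c12 the closest was Klrk1, the activating receptor NKG2D, at 0.152, then Akr1c13 at 0.167 and Actn2, a muscle-type actinin, at 0.229. The median over all genes was 0.901. For Akr1c13 the closest were Akr1c12 at 0.167, Klrk1 at 0.227 and Actn2 at 0.268, beside a median of 0.885. Klrk1 had 17.9, 10.8 and 10.6 CPM in Toxf/fPdcd1Cre, against 3.71 and 4.40 CPM in Toxf/f, with replicate 1 the highest as for Akr1c12. For Akr1c18 they were Fam171b at 0.041, Mgat5b at 0.080 and Tbc1d30 at 0.108, beside a median of 0.620. With 5 libraries a close match is a description, and no test was made.

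Markers of other cells moved with the genotype as well, and their part in the Akr1c12 and Akr1c13 values was not tested. In bulk RNA fewer cells of a type and less RNA per cell cannot be told apart. Of 11 tested markers of gamma-delta T and natural killer cells 4 rose (Cd163l1, Klrk1, Klrb1c and Trdc) and 0 fell in edgeR. DESeq2 gave 5 higher calls in the list and limma-voom 3, with 0 lower in both. At an unadjusted p under 0.05 in edgeR 6 were higher and 2 lower, beside 435 higher and 1025 lower of all 14121 genes tested. Of the 11, 8 had a log2 fold change above 0. Nkg7, a granule protein of cytotoxic cells, averaged 8.50 CPM in Toxf/fPdcd1Cre and 14.6 CPM in Toxf/f, and Il2rb, a chain of the interleukin 2 receptor, 36.5 CPM in Toxf/fPdcd1Cre and 60.3 CPM in Toxf/f. The 12 markers of the list summed to 427 to 706 CPM in Toxf/fPdcd1Cre and to 322 to 328 CPM in Toxf/f, and none was at 0 in every library. Toxf/fPdcd1Cre replicate 1 was at 706 CPM and replicates 2 and 3 at 428 and 427 CPM. Without replicate 1 there were 4 higher and 1 lower calls in the list, and the log2 fold change of Cd163l1 was 2.59, against 3.35 with it. Trdc, the constant region of the T cell receptor delta chain, averaged 260 ± 57.2 CPM in Toxf/fPdcd1Cre and 143 ± 23.6 CPM in Toxf/f. These 4 calls were lost without either Toxf/f library, and that of Trdc also without Toxf/fPdcd1Cre replicate 3.

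In the other direction 6 of 10 markers of mature single-positive T cells, 3 of 10 dendritic cell markers and 2 of 9 B and plasma cell markers fell. DESeq2 gave 6, 4 and 3 lower calls in these lists and limma-voom 6, 3 and 3. The dendritic call of Cd74 was lost without Toxf/fPdcd1Cre replicate 2 or 3, and that of Flt3 without Toxf/fPdcd1Cre replicate 3. Those of Ccl22, Igkc and Jchain were kept whichever Toxf/fPdcd1Cre library was left out. The log2 fold change of Cd74 was -0.81 without the shared Toxf/f library and -0.66 without Toxf/f replicate 3, and that of Ccl22 was -2.87 and -2.74. The markers of mature T cells summed to 657 to 699 CPM in Toxf/fPdcd1Cre, against 1028 to 1138 CPM in Toxf/f. Dendritic markers summed to 837 to 1093 CPM in Toxf/fPdcd1Cre, against 1530 to 1750 CPM in Toxf/f, and those of B and plasma cells to 559 to 711 CPM in Toxf/fPdcd1Cre, against 812 to 993 CPM in Toxf/f. The ranges of these 3 lists did not overlap between the genotypes. Within the dendritic list Cd74 alone averaged 594 CPM in Toxf/fPdcd1Cre and 992 CPM in Toxf/f, so a single gene held much of that sum. Markers of macrophages, monocytes and granulocytes summed to 466 to 692 CPM in Toxf/fPdcd1Cre and to 786 to 952 CPM in Toxf/f, and 0 of 13 passed in edgeR, with 2 lower at an unadjusted p under 0.05 and 1 lower each in DESeq2 and limma-voom. Mast cell and basophil markers summed to 7.98 to 12.3 CPM in Toxf/fPdcd1Cre and to 5.06 to 9.52 CPM in Toxf/f, with overlapping ranges, and 0 of 4 passed in these tools, with 1 higher at an unadjusted p under 0.05. Among markers of the double-negative stages 1 of 15 fell, Cd44, with a log2 fold change of -0.67 ± 0.145 (SE), and the list summed to 1032 to 1244 CPM in Toxf/fPdcd1Cre and 955 to 1145 CPM in Toxf/f. Among thymic epithelial markers 1 of 13 fell, the keratin Krt14, at -1.29 ± 0.253 (SE). The list summed to 3037 to 3392 CPM in Toxf/fPdcd1Cre and 2701 to 3128 CPM in Toxf/f. DESeq2 gave 1 lower call among the thymic epithelial markers and limma-voom 2, and each gave 1 among those of the double-negative stages. The call of Cd44 was kept in 1 of the 5 fits with a library left out, the one lacking Toxf/fPdcd1Cre replicate 1, and that of Krt14 in 2, those lacking Toxf/fPdcd1Cre replicate 1 or 2.

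In 5 further lists 0 genes passed in edgeR, DESeq2 or limma-voom. Immediate-early and dissociation genes had 0 of 10 above 0 and 3 lower at an unadjusted p under 0.05, with sums of 206 to 253 CPM in Toxf/fPdcd1Cre and 284 to 340 CPM in Toxf/f. Parathyroid and adipose markers had 0 of 6 above 0 and 2 lower at an unadjusted p under 0.05, with sums of 61.7 to 78.6 CPM in Toxf/fPdcd1Cre and 86.9 to 98.7 CPM in Toxf/f. The sums of both lists were apart between the genotypes. Erythroid markers had 3 of 6 lower at an unadjusted p under 0.05, mesenchymal and endothelial markers 1 of 11 higher, and double-positive markers 0 of 9, and the sums of these 3 lists overlapped. No marker of any list was at 0 in every library.

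**Figure D5:**
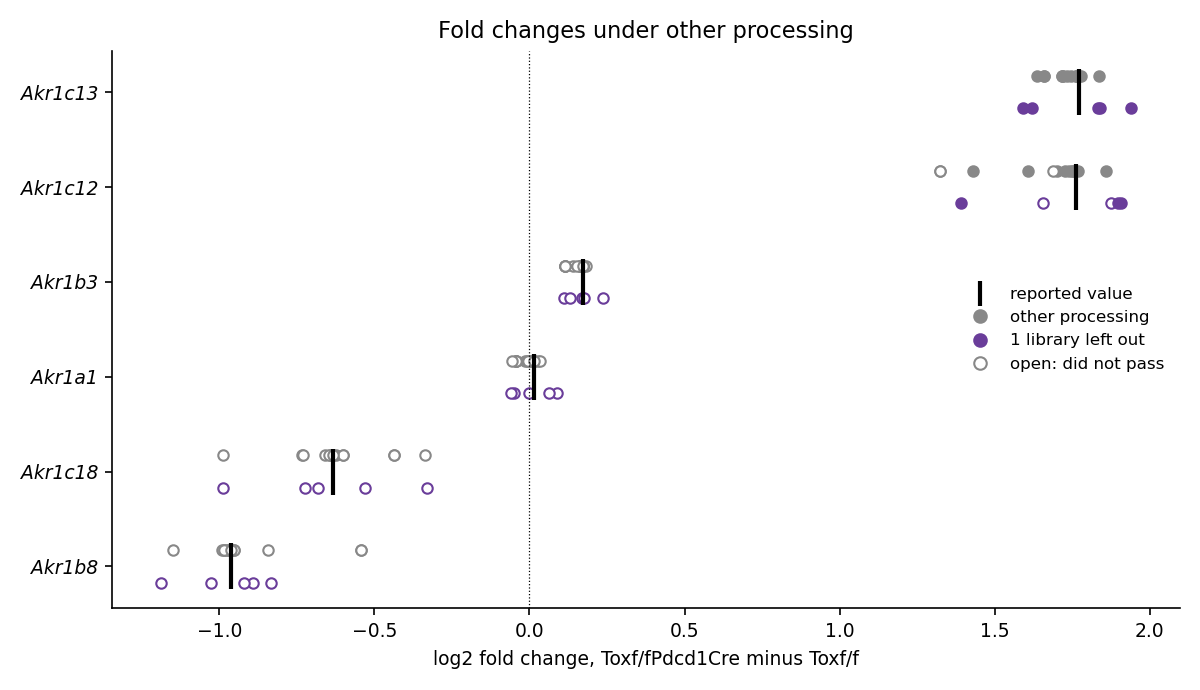
Log2 fold change (Toxf/fPdcd1Cre minus Toxf/f) of the 6 tested genes as reported (black bar), under other processing (grey) and with 1 library left out (purple); filled points passed an adjusted p of 0.05. Akr1c13 is filled throughout between 1.59 and 1.94, Akr1c12 is partly open between 1.32 and 1.91, Akr1b8 and Akr1c18 lie below 0 and open, and Akr1a1 lies on both sides of 0.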

How the data were processed

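RNA of thymocytes sorted from 6 samples was extracted with Trizol and sequenced as NEBNext Ultra libraries, per the labels' protocols. The authors deposited for each sample an estimated count and an FPKM value per gene, per the file headers; fastp 0.18.0, HISAT2 and StringTie 1.3.1 are listed in the submitters' processing notes. Build, counter and strandedness were not stated in any label or header. Between 8.81% and 9.84% of genes per library had an estimated count that was not whole (off by over 0.001).

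The identical files of Toxf/f replicates 1 and 2 entered once. Counts were rounded, filtered with filterByExpr to 14121 genes, TMM-scaled and tested in edgeR 4.0.16 (quasi-likelihood, R 4.3.3, Benjamini-Hochberg, threshold 0.05), with DESeq2 1.42.0 and limma 3.58.1 as alternatives. On simulated counts with 200 genes changed 2-fold the fit recovered 70.5% of them, with 12 false calls. At 4-fold it recovered 96.5%, with 14 false calls. No library was made to deviate in the simulation. Each simulated gene varied by the trend for its level, and genes under a minimum mean level were not changed. The rates may thus be too high for genes that vary more or lie low. Each SE of a log2 fold change was its size divided by the root of edgeR's F statistic, whose variance was moderated across all genes tested. GENCODE M21 (GRCm38) gave the coordinates, by Ensembl identifier, of 22255 genes. The deposited tables may rest on another build.

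The 8 genes and all lists were chosen with earlier results of these data known. Named besides them were Tox, listed genes within 500 kb of the 1C cluster, the 3 most alike in pattern, and per list up to 4 genes past the threshold or else the 2 with the highest mean. Some of the genes this rule gave are counted but not named. The marker sums, Kit, Cd4, Cd8a, Ddx3y, Akr1c19, Akr1c21 and Akr1e1 were named for context. Figures were drawn with matplotlib 3.10.9.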

Additional observations from a re-analysis of the deposited data

How the results depend on the processing

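Akr1c13 kept its direction and stayed past the threshold in all 19 alternatives that give it a value of its own, at 1.59 to 1.94 on the log2 scale, and Akr1c12 in 13 of 18, with 1.32 to 1.91. Akr1c12 missed it with upper-quartile factors (1.74), limma on log2(FPKM + 1) without a filter (1.32) and age as a covariate (1.69), and with 1 library left out it ranged from 1.39 to 1.91. The number of the 8 genes that passed was then 1, as it was with at least 10 CPM in 3 libraries, where Akr1c12 was filtered out, and with the pair summed as 1 feature; leaving out 1 library gave 1 to 2. Akr1a1 changed sign at -0.015 with upper-quartile factors, -0.045 with the 10 CPM filter, -0.044 with FPKM + 1 (filtered or not), -0.045 with FPKM + 0.1, -0.0087 with age, -0.0058 with the identical files counted separately, and between -0.059 and 0.089 with 1 library left out. The share of Akr1c14 in Toxf/f was 1.94% by counts in place of 0.927% by FPKM. All these alternatives reuse the libraries on which the 8 genes were selected. Passing again thus describes how the calls depend on processing and supports nothing further.

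Genes called over the whole table numbered 232, against 417 without a filter, 67 with at least 10 CPM in 3 libraries, 359 in DESeq2, 126 with FPKM + 0.1, 44 with unfiltered FPKM, 125 with age, 380 with the identical files separate, and 31 to 606 with 1 library left out. The 6 pathway lists held 3 calls, against 1 with RLE or upper-quartile factors or FPKM + 1, 0 with the 10 CPM filter, FPKM + 0.1, unfiltered FPKM or age, and 0 to 7 with 1 library left out. The 13 marker lists held 17 calls, against 7 with the 10 CPM filter, 11 with FPKM + 1, 10 with FPKM + 0.1 or age, 3 with unfiltered FPKM, and 4 to 25 with 1 library left out.

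Whether the replicate numbers pair the samples could not be decided. Same-numbered libraries deviated together at correlations of -0.15 and -0.13, or 0.073 with the shared library taken as replicate 2. With 2 Toxf/f libraries the deviations from their mean mirror each other, so these values are tied to one another. With the replicate block 2 of the 8 genes passed, Akr1a1 was at -0.057, 435 genes were called over the table and 33 in the marker lists. With the shared library as replicate 2, chosen after seeing the data like the summed pair, these were 868 and 31, with 8 calls in the pathway lists.

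With 2 distinct Toxf/f libraries, genes near 1 CPM such as Akr1c18 and Akr1b8 had standard errors of 0.481 and 0.452 on the log2 scale, which limits what can be said of them. The complementary fractions in the counts of Akr1c12 and Akr1c13 limit any statement on either alone.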
